A study of Mus musculus with 6 samples.

Results

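The genes described here encode the contractile machinery of smooth muscle cells and myofibroblasts. They are Acta2, Actg2, Tagln, Cnn1, Cnn2, Myl9, Tpm1, Tpm2, Mylk and Lmod1, 10 genes chosen by name, and all 10 have a row among the 26231 genes of the table. RNA was sequenced from mouse embryonic fibroblasts (MEFs) of FVB strain, with 3 libraries of the control line, MEF WT, and 3 libraries labelled MEF Nf2 KO. By the study's methods the cells of both lines carried Nf2 alleles flanked by loxP sites and were immortalized with SV40 large T antigen by lentivirus. The control line then received a CMV-GFP lentivirus and the knockout line a CMV-Cre GFP lentivirus, with no promoter that limits either to a cell type. Embryos were about 14 days old by the labels, and all 6 libraries came from cells kept in medium with 10% fetal bovine serum and then 24 h without serum before RNA was taken. Each line is a single derivation, so a difference between the lines cannot be told apart from a difference between these derivations. Replicates 1, 2 and 3 of each line bear the library marks A, B and 2018. The labels do not say whether replicates came from separate cultures, so p-values measure the spread between these libraries, which may be technical.

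In smooth muscle and in activated fibroblasts, force comes from myosin II pulling on bundles of actin. The bundles hold alpha smooth muscle actin (Acta2) and gamma smooth muscle actin (Actg2), and are dressed with transgelin, calponins and tropomyosins, while phosphorylation of the regulatory light chain (Myl9) by myosin light chain kinase (Mylk) switches the motor on. Many of these genes are read by serum response factor (SRF) with its cofactors, the myocardin-related transcription factors (MRTFs), which enter the nucleus when free actin monomers are used up. Cultured fibroblasts on stiff plastic commonly make Acta2 and Tagln, and Acta2 stress fibres are the usual mark of a myofibroblast.

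SRF binds the CArG box, a run of A and T bases between a CC and a GG. Sequence before the start sites is shown as background, and its part in the values below was not tested. RefSeq (GRCm38.p6) had an entry for 8 of the 10 genes, without Actg2 and Tagln. Within the 250 bases before the RefSeq start, 2 of the 8 held a CArG box, against 1.47% of all 32851 promoters of that length, and 2 of the 8 held a box with 1 base of its A/T core replaced, against 7.24%. The stretches below run 5′ to 3′ on the gene's strand, with perfect boxes and those with 1 replaced base in capitals. They are upstream of the annotated gene for Cnn2 (chr10:79988350-79988583, plus strand) and Myl9 (chr2:156775214-156775419, plus strand).
Cnn2: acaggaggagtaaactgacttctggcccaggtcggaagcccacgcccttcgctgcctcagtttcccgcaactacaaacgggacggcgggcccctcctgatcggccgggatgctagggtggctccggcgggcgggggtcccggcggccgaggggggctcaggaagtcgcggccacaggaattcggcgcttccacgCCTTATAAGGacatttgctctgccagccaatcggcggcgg
Myl9: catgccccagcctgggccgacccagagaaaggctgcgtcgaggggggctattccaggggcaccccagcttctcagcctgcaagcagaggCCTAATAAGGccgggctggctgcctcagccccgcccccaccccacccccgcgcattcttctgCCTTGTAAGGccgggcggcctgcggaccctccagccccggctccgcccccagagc
For Acta2 (minus strand) 30 bases around each of its 2 boxes with a replaced base are given, at chr19:34255438-34255467 and chr19:34255388-34255417.
Acta2, farther box: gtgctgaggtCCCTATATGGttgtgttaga
Acta2, nearer box: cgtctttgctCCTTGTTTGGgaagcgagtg

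The box of Cnn2 began 56 bases before the start, and that of Myl9 began 161 bases before it, with a box of 1 replaced base at 99 bases. The boxes of Acta2 began 84 and 34 bases before the RefSeq start, inside the gene as GENCODE vM21 draws it, since the 2 annotations place the start differently. The letters CATTCC, searched on both strands as the core of the sites that TEAD factors bind, were in 4 of the 8 windows (Acta2, Tpm1, Lmod1 and Mylk) and in 12.6% of all promoters. No capitals mark them above. The windows of Cnn1 and Tpm2 held none of the 3 motifs. These matches are letters in a window, not measured binding.

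Values are RPKM, read counts divided by exon length and by library size, and differences are on the log2(RPKM + 1) scale, which understates changes of low genes. Read depth, inferred from the steps between low values, was 13453568 to 19279412 reads for replicates 1 and 2 and 61185598 to 73051325 reads for replicate 3. Replicate 2 of both lines stood apart: the first principal component, 50.3% of the variance, set it off from the other 4 libraries, and the second, 32.7%, separated the lines. Nf2, the targeted gene, read 14.3, 13.7 and 13.1 RPKM in MEF WT and 15.4, 12.9 and 13.9 RPKM in the libraries labelled Nf2 KO, a difference of 0.03 ± 0.10 (SE; limma, Benjamini-Hochberg adjusted p = 0.987). Nf2 RNA therefore did not separate the lines, and every direction below rests on the labels alone. RPKM over the whole gene need not fall when Cre removes a part of it. The 9 fibroblast markers summed to 1130 to 2063 RPKM, carried by Vim, Col1a1 and Col1a2, while Lum was at 0 to 0.247 RPKM, Dcn at 0.0266 to 4.01 RPKM and Pdgfra at 5.22 to 12.3 RPKM in MEF WT and 0.657 to 1.42 RPKM in the line labelled Nf2 KO. Of the 6 markers of differentiated smooth muscle, 3 were under the filter on low values, with Myh11, its myosin heavy chain, at 0.00978 to 0.0347 RPKM, Des at 0.198 to 0.444 RPKM and Myocd, its master cofactor, at 0.153 to 0.525 RPKM. The other 3 were measured above it, Smtn at 18.7 to 32.6 RPKM and the members Lmod1 and Cnn1 at 1.35 to 7.84 and 0.923 to 4.82 RPKM.

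Levels differed over more than 3 orders of magnitude among the 10 genes. By the mean of all 6 libraries the order was Acta2 (995 RPKM), Tagln (396), Cnn2 (260), Myl9 (205), Tpm1 (184), Tpm2 (96.6), Actg2 (13.7), Lmod1 (3.52), Cnn1 (2.53) and Mylk (0.306). Neighbours kept this order in all 6 libraries for Acta2 over Tagln, Tpm2 over Actg2, Actg2 over Lmod1 and Cnn1 over Mylk. Myl9 and Tpm1 kept it in only 2 of 6 and Tagln and Cnn2 in 4 of 6, so those neighbours are not separated. By mean level Acta2 had rank 17 among the 11067 tested genes, while Cnn1 and Lmod1, usually taken as stricter smooth muscle markers, had ranks 9038 and 8137.

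**Figure D1:**
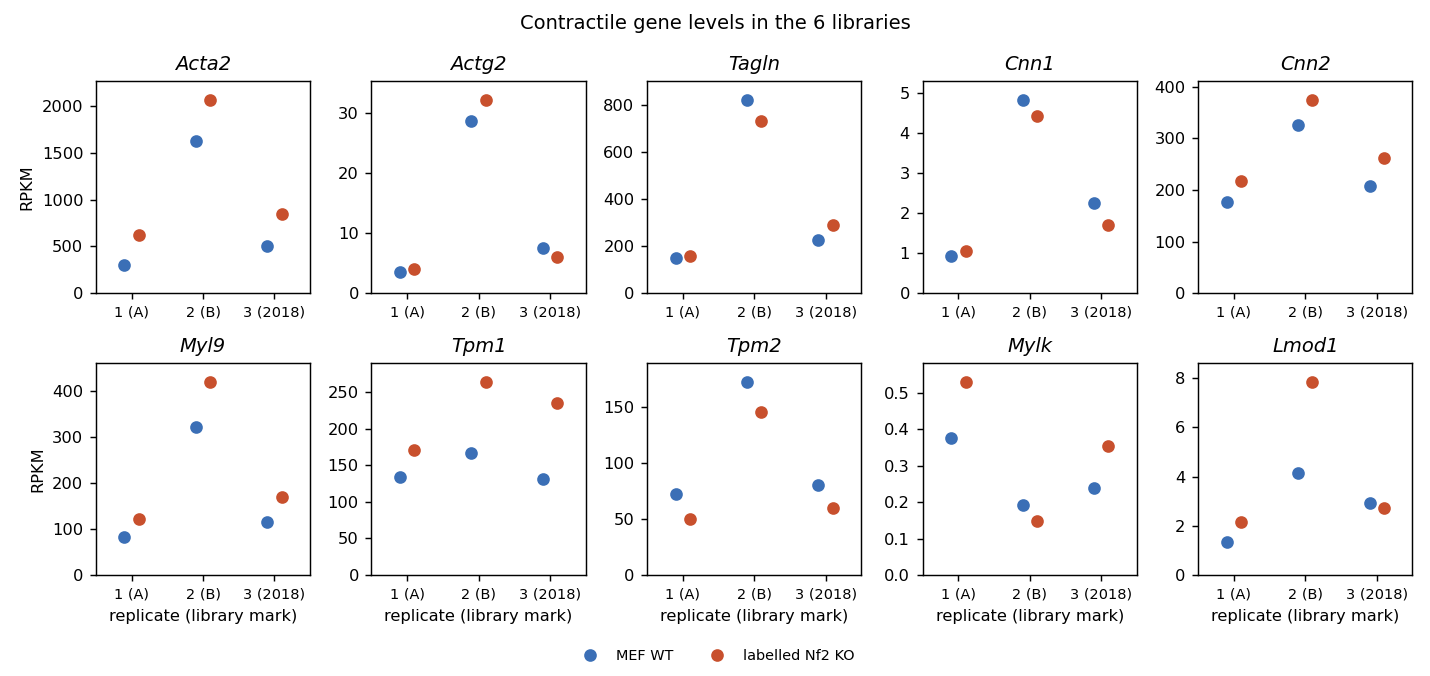
RPKM (y axis, starting at 0 and scaled per gene) of the 10 contractile genes in each library, by replicate (x axis, library mark in brackets), with MEF WT in blue and the libraries labelled Nf2 KO in orange. Both replicate 2 points lie above the other 4 in 8 panels, the lines are apart in Tpm1 alone, and Mylk has its lowest points at replicate 2.

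Comparing replicate 2 with replicates 1 and 3, line as a block, shows the main feature of these genes. Of the 9 genes that passed the filter on low values (1 RPKM or more in 3 or more libraries), 8 were called at an adjusted p under 0.05 and all 8 were higher in replicate 2, while 30.6% of the 11067 genes tested were called, 10.8% higher (1195 genes) and 19.8% lower (2191 genes). That split of all genes turned with the scaling, to 1553 higher and 1412 lower with quantile normalization and to 1698 and 1536 with median centring, where 9 and 8 of the 9 contractile genes were called, all higher. The median difference was 1.28 over the 9 and -0.08 over all genes. That replicate 2 stands apart was known when this comparison was set up, so its p-values are not independent evidence that it does. In each result below the adjusted p is limma's, by Benjamini-Hochberg over the 11067 genes, in bulk RNA, where more cells of a kind and more RNA per cell cannot be told apart.

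Acta2, the actin of smooth muscle and myofibroblast stress fibres (19:34241090-34255590, minus strand, GRCm38), read 302, 1625 and 501 RPKM in MEF WT replicates 1, 2 and 3, and 625, 2066 and 851 RPKM in the libraries labelled Nf2 KO. Both replicate 2 libraries stood above the other 4, and within each replicate number the library labelled Nf2 KO was the higher. Replicate 2 was 4.04-fold the mean of replicates 1 and 3 in MEF WT and 2.80-fold in the line labelled Nf2 KO, a difference of 1.78 ± 0.25 (SE, adjusted p = 0.00421). As a share of the summed RPKM of the 5 actin genes in the table (Acta1, Acta2, Actb, Actg1 and Actg2), Acta2 made up 11.5%, 30.7% and 16.5% in MEF WT and 21.4%, 38.5% and 23.2% in the line labelled Nf2 KO. Its shares at replicate 2 were thus the highest of each line. Cytoplasmic Actb and Actg1 were also highest there, Actb at 1784 and 1548 RPKM against 1042 to 1275 RPKM elsewhere. Actg1 read 1840 and 1715 RPKM in replicate 2 and 1254 to 1530 RPKM elsewhere. These actin values and the family shares below were chosen after their values were seen.

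Actg2 (6:83512905-83536265, minus strand), the enteric smooth muscle actin, showed the largest difference of the 10 at far lower levels. It read 3.48, 28.8 and 7.54 RPKM in MEF WT and 4.01, 32.2 and 6.03 RPKM in the line labelled Nf2 KO. Here the lines overlapped and replicate 2 stood far above the rest, 5.22-fold and 6.41-fold over the other replicates of its line, a difference of 2.37 ± 0.26 (adjusted p = 0.00268). By the size of the rise in replicate 2 it ranked 10 among the 11067 genes tested, with Tagln at rank 15 and Acta2 at rank 20. Little of this sequence is shared with other genes: 1.39% of the 31-base stretches of Acta2 and 1.21% of those of Actg2 occur in another gene.

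Tagln encodes transgelin (SM22), an actin cross-linking protein of the calponin family (9:45929619-45936058, minus strand). Its levels were 152, 821 and 225 RPKM in MEF WT and 157, 733 and 289 RPKM in the line labelled Nf2 KO. The lines lay side by side at each replicate number, and replicate 2 was 4.36-fold and 3.28-fold the others, a difference of 1.96 ± 0.27 (adjusted p = 0.00501). Exons of Pcsk7 and Gm48529 overlap Tagln on the opposite strand, and whether reads were counted by strand is not given in the sources used here. Pcsk7 stayed between 6.96 and 7.68 RPKM, while Gm48529 read 4.24 and 4.36 RPKM in replicate 2 and 1.49 to 1.91 RPKM elsewhere, so reads of Tagln and Gm48529 cannot be told apart.

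Calponins bind actin and slow its sliding on myosin. Cnn1 (9:22099216-22109630, plus strand), the smooth muscle form, read 0.923, 4.82 and 2.25 RPKM in MEF WT and 1.05, 4.43 and 1.71 RPKM in the line labelled Nf2 KO, with as few as 34 estimated reads in MEF WT replicate 1. Replicate 2 was above the other 4 libraries, by 1.21 ± 0.22 (adjusted p = 0.00944). Cnn2 (10:79988584-79996062, plus strand), the widely expressed form, read 176, 326 and 208 RPKM in MEF WT and 216, 373 and 261 RPKM in the line labelled Nf2 KO. Its rise was smaller than that of Cnn1, at 1.70-fold and 1.56-fold and a difference of 0.71 ± 0.12 (adjusted p = 0.00671). Cnn2 made up 72.1% and 69.4% of the summed RPKM of the 3 calponins in replicate 2 and 54.9% to 57.3% elsewhere. Cnn3, the remaining calponin, was at 121 and 160 RPKM in replicate 2, the lowest value of each line.

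Tropomyosins lie along the actin filament and set which motors and binding proteins reach it. Tpm2 (4:43514711-43523765, minus strand), the beta form, read 72.3, 172 and 80.4 RPKM in MEF WT and 49.9, 145 and 59.7 RPKM in the line labelled Nf2 KO. Replicate 2 was again above the other 4, by 1.28 ± 0.11 (adjusted p = 0.000994), and at each replicate number the library labelled Nf2 KO was the lower. Tpm1 (9:67022590-67049406, minus strand), the alpha form, read 135, 166 and 131 RPKM in MEF WT and 172, 264 and 235 RPKM in the line labelled Nf2 KO. It was the exception among the 9: replicate 2 was highest in each line but did not clear the other 4 libraries, and the difference of 0.36 ± 0.13 missed the threshold (adjusted p = 0.0784). Tpm2 made up 18.0% and 14.2% of the summed RPKM of the 4 tropomyosins in replicate 2 and 7.79% to 12.7% elsewhere, while Tpm1 made up 17.4% to 23.6% in MEF WT and 25.8% to 30.7% in the line labelled Nf2 KO. RPKM over a whole gene does not separate the muscle and non-muscle isoforms that both genes make by splicing.

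Myl9 (2:156775420-156781658, plus strand), the regulatory light chain of smooth muscle and non-muscle myosin II, read 82.6, 322 and 115 RPKM in MEF WT and 122, 419 and 170 RPKM in the line labelled Nf2 KO. Replicate 2 stood above the other 4, at 3.25-fold and 2.88-fold, a difference of 1.62 ± 0.18 (adjusted p = 0.00219). Among the 3 regulatory light chains of this kind, Myl9 made up 69.3% and 74.9% of the summed RPKM in replicate 2 and 44.0% to 52.3% elsewhere. Myl12b, the non-muscle form named with the myosin genes below, moved the other way, at 9.56 and 11.4 RPKM in replicate 2 and 17.9 to 30.3 RPKM elsewhere. Myl12a, the other non-muscle form, read 133 and 129 RPKM in replicate 2 and 87.3 to 125 RPKM elsewhere (difference 0.40, adjusted p = 0.0534).

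Mylk, the kinase that phosphorylates Myl9 (16:34745210-35002420, plus strand), was the only one of the 10 genes under the filter. It read 0.376, 0.192 and 0.238 RPKM in MEF WT and 0.530, 0.147 and 0.353 RPKM in the line labelled Nf2 KO, the smallest from an estimated 32 reads. Its replicate 2 libraries were the lowest 2 of the 6, opposite to the other 9 genes. The difference was -0.23 (exact two-sided permutation test, p = 0.133). With 2 against 4 libraries this test, which doubles the smaller tail, allows no p below 0.133. It therefore could not decide whether replicate 2 differed. Mylk exons overlap the E130310I04Rik and Gm21691 genes on the opposite strand.

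Lmod1 (1:135324807-135368065, plus strand), leiomodin, which nucleates actin filaments in smooth muscle, read 1.35, 4.13 and 2.90 RPKM in MEF WT and 2.17, 7.84 and 2.70 RPKM in the line labelled Nf2 KO. The replicate 2 library labelled Nf2 KO was the highest and MEF WT replicate 2 the next, at 3.22-fold and 1.94-fold over the others of their line, a difference of 1.06 ± 0.23 (adjusted p = 0.0182).

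Not only replicate 2 was ordered. In 8 of the 9 tested genes, all but Tpm1, replicate 1 was lowest, replicate 3 between and replicate 2 highest in both lines, an order that 5.77% of all tested genes shared. Both replicate 2 libraries lay above the other 4 in the same 8 genes, against 16.8% of all genes. Replicate 2 differed by more than the lines did in 8 of the 9 (67.7% of all genes), again without Tpm1. Against replicate 1 alone 8 of 9 were called, all higher (26.5% of all genes were called, 8.67% higher), and against replicate 3 alone also 8 of 9, all higher (23.1% and 8.27%). With 1 replicate 2 library left out the other stands alone and is assumed to vary like the rest. Without MEF WT replicate 2, limma then called 4 of 9, losing Acta2 (1.501), Tagln (1.77), Cnn1 (1.20) and Cnn2 (0.65) at adjusted p 0.0519 to 0.0855. Without the replicate 2 library labelled Nf2 KO it called 5 of 9, losing Cnn1 (1.22), Cnn2 (0.76) and Lmod1 (0.76) at 0.0611 to 0.180. Over all genes the calls fell from 3386 to 832 and 699. None of the 9 changed direction in this comparison under any alternative run.

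**Figure D2:**
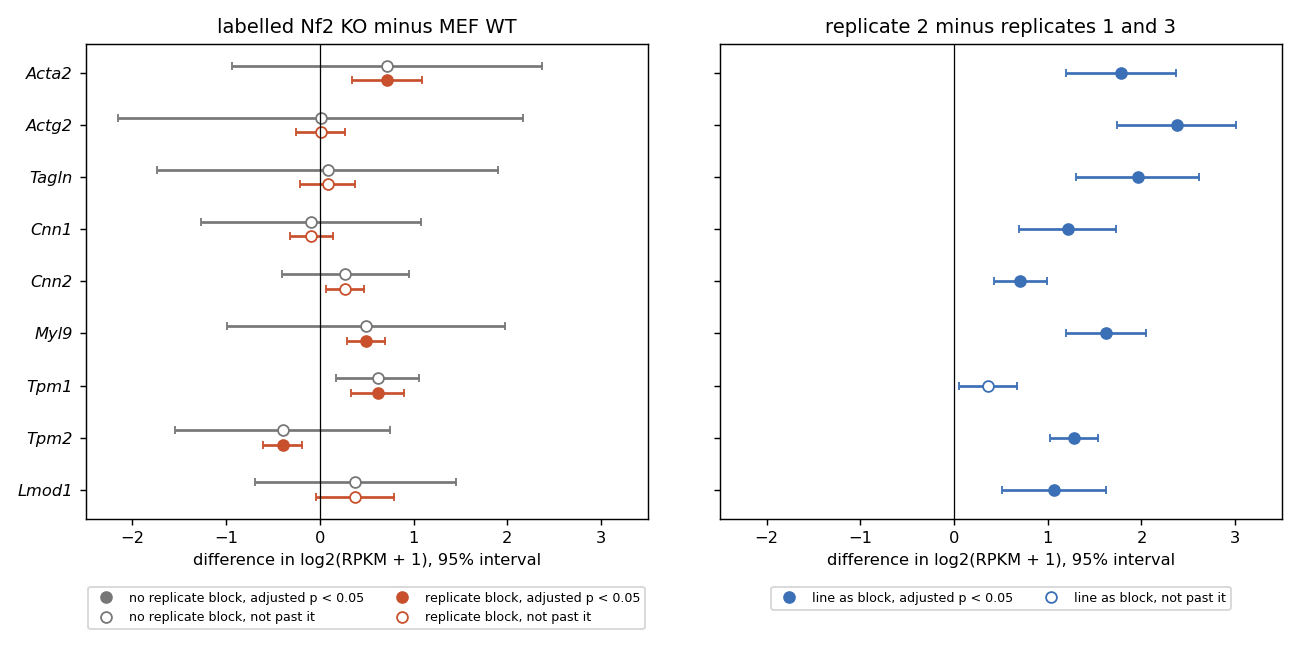
Differences in log2(RPKM + 1) with 95% intervals from limma (x axis) for the 9 tested genes (y axis), between the lines on the left (grey without and orange with the replicate number as a block) and of replicate 2 on the right, with filled points at adjusted p under 0.05. On the right 8 points are filled, between 0.71 and 2.37, and on the left only Acta2, Myl9, Tpm1 and Tpm2 are filled, with the block alone.

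The comparison of the lines asks how cells labelled as lacking Nf2, which encodes the membrane-cytoskeleton linker Merlin, differ in these genes. In the fit without a replicate block, 0 of the 9 were called (limma; 1 at an unadjusted p under 0.05, Tpm1), and 1.06% of all genes were. Mean levels were 809 ± 713 (SD, n = 3) RPKM in MEF WT and 1181 ± 775 in the line labelled Nf2 KO for Acta2, 173 ± 130 and 237 ± 160 for Myl9, and 108 ± 55.5 and 85.0 ± 52.5 for Tpm2. These spreads include the high replicate 2 library that each line holds. Tpm1, at 144 ± 19.5 and 224 ± 47.3 RPKM, was the only gene of the 9 whose lines did not overlap (15.1% of all genes did not), with a difference of 0.62 ± 0.19 (SE) and an adjusted p of 0.264.

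Same-numbered libraries deviated together from their line means (correlations of 0.52 to 0.82 across genes), and the numbers were treated as pairs. Deviations cancel out within each line. A replicate 2 set apart in both lines therefore correlates replicates 1 and 3 between the lines by itself. These correlations do not show pairing beyond that shift of replicate 2. Once replicate number entered as a block, 4 of the 9 passed, against 7.53% of all genes (2.99% higher, 4.54% lower). Acta2 was higher in the line labelled Nf2 KO by 0.72 ± 0.15 (adjusted p = 0.0487), with ratios to MEF WT of 2.07, 1.27 and 1.70 in replicates 1, 2 and 3. Myl9 was higher by 0.50 ± 0.08 (adjusted p = 0.0264), with ratios of 1.47, 1.30 and 1.47. Tpm1 was higher by 0.62 ± 0.11 (adjusted p = 0.0341), with ratios of 1.28, 1.59 and 1.80. Tpm2 was lower, by -0.40 ± 0.08 (adjusted p = 0.0488), with ratios of 0.690, 0.844 and 0.742. The pair of tropomyosins thus moved in opposite directions in every replicate. These 4 calls are close to the threshold: without replicate 1 only Tpm1 passed, and without replicate 2 or replicate 3 none of the 9 did, nor with no filter on low values. Over these 3 omissions, with fewer pairs, the differences were 0.55 to 0.90 (Acta2), 0.47 to 0.55 (Myl9), 0.51 to 0.75 (Tpm1) and -0.48 to -0.33 (Tpm2).

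Cnn2 was also higher in all 3 replicates, with ratios of 1.23, 1.14 and 1.25, but missed the threshold with the block (adjusted p = 0.118). Together 4 of the 9 genes (Acta2, Cnn2, Myl9 and Tpm1) were higher in all 3 replicate numbers, against 22.3% of all genes, and 1 (Tpm2) was lower in all 3, against 24.6%. For the remaining 4 genes the higher line changed between replicates: ratios were 1.15, 1.12 and 0.799 for Actg2, 1.04, 0.892 and 1.28 for Tagln, 1.14, 0.920 and 0.760 for Cnn1, and 1.60, 1.90 and 0.930 for Lmod1, with adjusted p of 0.251 to 0.961 with the block. For Actg2 the interval of the difference with the block ran from -0.25 to 0.27, for Tagln from -0.21 to 0.38, and for Lmod1 from -0.04 to 0.80. Mylk, under the filter, had ratios of 1.41, 0.767 and 1.49 (exact two-sided permutation p = 0.7, smallest possible 0.1).

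Whether the difference of replicate 2 itself differed between the lines was tested as an interaction. None of the 9 passed (limma, adjusted p of at least 0.9999; 0 at an unadjusted p under 0.05), and of all 11067 genes 0 did (313 at an unadjusted p under 0.05). The estimates are wide. For Acta2 the rise in the line labelled Nf2 KO was smaller by 0.56, with a 95% interval from -1.73 to 0.61, and for Lmod1 it was larger by 0.61, with an interval from -0.42 to 1.64. This fit had no block for the replicate numbers, so the spread that replicates 1 and 3 share in both lines stayed in its error. With the block, added after seeing the data, none of the 9 passed either (adjusted p of at least 0.9999; 0 at an unadjusted p under 0.05), and of all genes 0 did (446 at an unadjusted p under 0.05). The intervals became -1.34 to 0.23 for Acta2 and -0.046 to 1.27 for Lmod1. No difference was detected in either fit, which does not show that the lines rose alike.

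**Figure D3:**
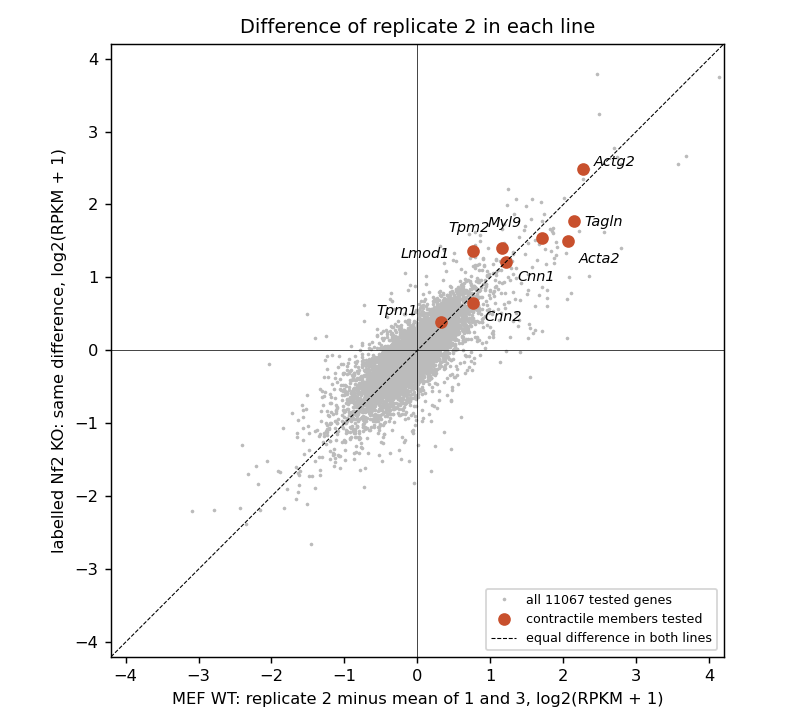
Difference of replicate 2 from the mean of replicates 1 and 3 on the log2(RPKM + 1) scale in MEF WT (x axis) and in the line labelled Nf2 KO (y axis), for all 11067 tested genes (grey) and the 9 contractile genes tested (orange), with the dashed line at equal differences. All 9 contractile genes lie above 0 in both lines, from Tpm1 nearest the origin to Actg2 farthest.

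Lists of genes around the contractile machinery are read against all genes tested, of which 10.8% were called higher and 19.8% lower in replicate 2, with a median of -0.08. Of the SRF and MRTF factor list (Srf, its MRTF cofactors, TEADs and the LIM proteins that work with them), 12 of 13 genes were tested, 8 were called higher and 2 lower, with a median of 0.42. Fhl1, a LIM-only protein, rose by 1.74 ± 0.11 (limma, adjusted p = 0.000618). Srf itself read 20.1, 39.6 and 19.7 RPKM in MEF WT and 21.0, 46.5 and 23.5 RPKM in the line labelled Nf2 KO, a difference of 1.00 ± 0.08 (adjusted p = 0.000785), and replicate 2 stood clear of the other 4. Tgfb1i1 (Hic-5), a focal adhesion protein, rose by 0.90 ± 0.15 (adjusted p = 0.00688) and Csrp1 by 0.71 ± 0.12 (adjusted p = 0.00645). Between the lines none of the 12 was called, beside 1.06% of all genes without the block and 7.53% with it. With the block 7 of the 12 had an unadjusted p under 0.05 (limma), as did 2563 of the 11067 genes tested.

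Cytoskeletal and matricellular targets of MRTF and its partners had the highest median of the 6 lists, with 10 of 13 tested genes called higher in replicate 2 (10.8% of all genes), none lower, and 0.79 as that median. Ctgf, a secreted matricellular protein, read 44.5, 739 and 71.9 RPKM in MEF WT and 79.1, 673 and 141 RPKM in the line labelled Nf2 KO, a rise of 3.17 ± 0.34 (adjusted p = 0.00241). Cyr61, of the same protein family, rose by 2.10 ± 0.20 (adjusted p = 0.00157). Of these targets Zyx, Lima1 and Thbs1 were higher in the line labelled Nf2 KO with the block (adjusted p = 0.0375, 0.0441 and 0.0335) and none was without it, beside 2.99% of all genes called higher with the block. Thbs1, thrombospondin, had the largest difference between the lines there, at 1.69 ± 0.30.

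Other parts of the machinery were compared in the same way. Of 13 further smooth muscle contractile genes only 5 passed the filter, of which 3 were called higher in replicate 2 (10.8% of all genes), Pdlim7 (0.51) and Smtn (0.46) among them, with a median of 0.46 over the 5. Cald1, caldesmon, was called higher in the line labelled Nf2 KO with the block (0.79 ± 0.12, adjusted p = 0.0191; 2.99% of all genes). Of 14 genes for myosin chains and for the enzymes that set their phosphorylation, 2 were called higher (Myl6 at 0.58 and Myh9 at 0.44) and 1 lower (Myl12b at -1.13) in replicate 2, with a median of 0.09. Of all genes 10.8% were called higher and 19.8% lower, and in these 14 neither Rhoa nor the kinases Rock1 and Rock2 were called. Of 6 non-muscle actins, calponin, tropomyosins and tropomodulin tested, 4 were called higher (10.8% of all genes), at 0.29 (Tpm3) to 0.67 (Tpm4), below every called member of the 10. With the block Myl12b, Cnn3 and Tmod3 were also called higher in the line labelled Nf2 KO, at 0.41, 0.38 and 0.50 (adjusted p of 0.0422 to 0.0442). They are 1 of the 14 and 2 of the 6 genes, beside 2.99% of all genes.

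The myofibroblast matrix list holds 12 genes, among them the cadherins Cdh2 and Cdh11 and the actin-binding protein Palld, which are not matrix proteins. In replicate 2, 3 of the 12 were called higher, Palld (0.35) among them, and 4 lower, beside 10.8% and 19.8% of all genes, and the median of -0.14 was close to that of all genes (-0.08). Col3a1, fibrillar collagen III, read 82.0, 15.3 and 82.1 RPKM in MEF WT and 54.7, 6.95 and 29.8 RPKM in the line labelled Nf2 KO, a fall of 2.37 ± 0.22 on the log2 scale. Tnc, tenascin C, rose by 1.44 ± 0.36, and Col1a2 differed by -1.29 ± 0.13. Fn1, fibronectin, was the only gene of the 6 lists called between the lines without the block, where 1.06% of all genes were. It read 455 to 491 RPKM in MEF WT and 295 to 314 RPKM in the line labelled Nf2 KO (-0.63 ± 0.09, limma, adjusted p = 0.0390). With the block 3 of the 12 were called lower in that line (Fn1, Col3a1 and Tnc) and 1 higher (Cdh2), beside 4.54% and 2.99% of all genes.

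**Figure D4:**
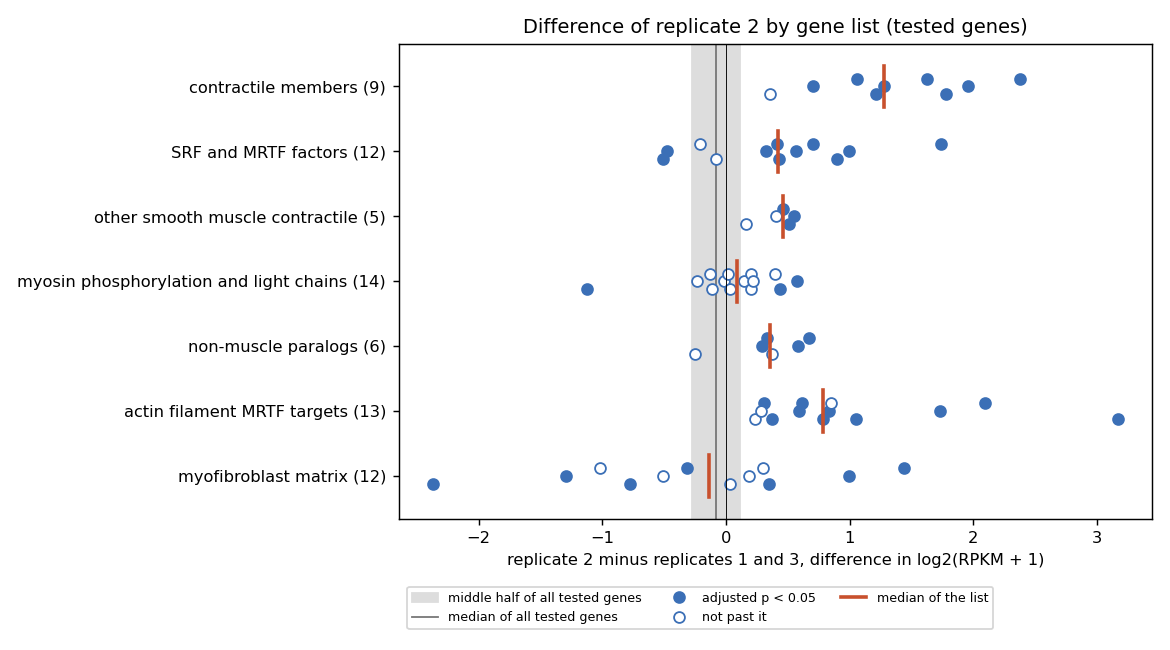
Difference of replicate 2 in log2(RPKM + 1) (x axis) for each tested gene of the 10 contractile genes and of 6 related lists (y axis, genes tested in brackets), filled at adjusted p under 0.05, with list medians in orange and the grey band holding the middle 50% of all tested genes. The contractile genes have the highest median (1.28), followed by the actin filament MRTF targets (0.79), and the myofibroblast matrix list lies on both sides of 0.

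Markers of other cells were read beside these results. The 6 smooth muscle markers summed to 34.2 and 45.7 RPKM in replicate 2 and 22.3 to 27.6 RPKM elsewhere, most of it Smtn, with Myh11 under 0.1 RPKM throughout. Cnn1 and Lmod1 are on this list and among the 10 contractile genes, so it is not separate from them. Fibroblast markers summed to 1130 and 1378 RPKM in replicate 2 and 1347 to 2063 RPKM elsewhere. Of the 8 tested, 5 were called lower in replicate 2 (19.8% of all genes), with a median of -0.75 (-0.08 over all genes), and Col3a1 (-2.37) and Pdgfrb (-1.58) were among them. The 4 endothelial markers summed to 3.89 and 4.45 RPKM in replicate 2 and 1.46 to 1.83 RPKM elsewhere, nearly all Kdr, with Pecam1 at most 0.0286 RPKM. Of the 7 skeletal muscle markers 5 were in the table and summed to 2.70 and 6.27 RPKM in replicate 2 and 0.517 to 0.845 RPKM elsewhere, nearly all Acta1. The 4 cardiac markers in the table summed to 4.59 and 4.75 RPKM in replicate 2 and 1.88 to 3.89 RPKM elsewhere, mostly Tnnt2. Pericyte markers (25.6 to 39.1 RPKM), macrophage markers (5.90 to 8.51 RPKM) and epithelial markers (0.223 to 0.806 RPKM) did not set replicate 2 above the other libraries. Between the lines, 1.06% of all genes were called without the block. The fibroblast markers Pdgfra and Dcn (2 of 8 tested) and the pericyte marker Cspg4 (1 of 3 tested) were lower in the line labelled Nf2 KO (limma, adjusted p = 0.0329, 0.0348 and 0.0329). With the replicate block the pericyte marker Mcam was higher there (0.91, adjusted p = 0.0147), and 4 of the 8 fibroblast markers were lower, beside 2.99% of all genes higher and 4.54% lower. The part of these shifts in the contractile results was not tested.

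Genes with the most similar profile over the 6 libraries were looked up by Pearson correlation, as a description over points that share their replicate structure. Outside the 10 contractile genes, closest to Acta2 were Lims2 (0.996), Gpr176 (0.994), Ghr (0.991) and Eif3j1 (0.988), and closest to Cnn1 were Tmem106c, Mob3a, Rrp8, Tgfb1i1 and Tfip11, at 0.984 to 0.992. Lims2, which encodes the focal adhesion protein PINCH2, read 0.194, 3.88 and 0.768 RPKM in MEF WT and 0.939, 5.46 and 1.64 RPKM in the line labelled Nf2 KO. Among the members, Cnn2 (0.994) and Myl9 (0.990) were most like Acta2 and Tpm1 (0.738) and Tpm2 (0.727) were least like it. With Cnn1, the highest were Actg2 (0.986) and Tagln (0.970), and the lowest was Tpm1 (0.406).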

How the data were processed

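RNA was measured by sequencing in 3 MEF WT and 3 MEF Nf2 KO libraries, prepared and analysed by GENEWIZ. The authors deposited 1 table of 26231 genes and 6 libraries, with all columns mapped to samples by their marks (0 left unmapped). Its unit is not stated. The deposited values are taken as RPKM because, times exon length (GENCODE vM21, known for 26033 genes), 86.0% to 87.6% of values of up to 20 reads were whole reads within 0.1 (20% by chance). Reads, depths and the unit are thus inferences. Very small values beside exact zeros point to estimates that split shared reads. The submitters' processing notes name mm10; the aligner, counter and strand setting are not given in the sources used here.

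Values were set to log2(RPKM + 1). The 11067 genes at or above 1 RPKM in 3 or more libraries entered limma 3.58.1 in R 4.3.3 (trend and robust settings), two-sided, Benjamini-Hochberg adjusted, threshold 0.05. The line comparison followed the paper's unpaired design, with a second fit, blocked on replicate number, given where calls differ. Deviations of same-numbered libraries correlated at 0.55, 0.82 and 0.52, all over 0.1, and the numbers were counted as pairs. The shift of replicate 2 in both lines by itself raises the values for replicates 1 and 3, so they do not show pairing beyond it. Replicate 2 was compared with line as a block, and its interaction with line was fitted over all 6 libraries, without and with replicate number as a block. The line fits and the interaction fits, without and with the block, and the replicate 2 fit were tested on simulated data. The fits against replicate 1 or 3 alone and the other alternatives were not. All 10 members are named, and from each of 6 lists at most 4 genes, those called between the lines first and then those called in replicate 2, by size; other genes were named after their values were seen, and some results for single genes are not reported here. The members, lists and comparisons were chosen with earlier results of these data known. Alternatives were another pseudocount, filters, limma settings, scalings, voom on recovered reads, the blocks, and each replicate number or library left out. The interaction fit with the block and alternatives to the line fit with the block were added after seeing the data. Figures were drawn with matplotlib 3.10.9.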

Additional observations from a re-analysis of the deposited data

How the results depend on the processing

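The count of contractile genes called in replicate 2 stayed at 8 or 9 of the 9 tested under the other pseudocount, limma settings, scalings, voom and either comparison replicate alone, and was 6 of the 7 tested with a filter of 5 RPKM and 5 of the 10 tested with no filter. Leaving out a library of replicate 1 or 3 gave 8 or 9. The fits without a replicate 2 library are described above. Over all genes the replicate 2 count of 3386 became 884 with no filter and 1976 with no line block, and 699 to 3375 with a library or replicate left out. Tpm1 passed with quantile normalization (adjusted p = 0.0476) and without the replicate 3 library labelled Nf2 KO (0.0210).

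Between the lines, 117 genes became 9 with no filter, 63 with a filter of 5 RPKM and 833 with the replicate block, and 0 to 484 with a library or number left out (484 without replicate 2; 0 without replicate 1 or 3, where 578 and 556 genes had an unadjusted p under 0.05). Contractile genes called rose from 0 to 4 with the replicate block and were 0 to 0 on leaving out. With the block, the 4 became 0 with no filter and 0 to 1 without a replicate number, where fewer pairs remain, and 3 or 4 under the other settings. Tpm2 missed by median centring (adjusted p = 0.0511).

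Differences that crossed 0 were none of them called. Actg2 between the lines was -0.14 with voom, and -0.041 with voom and the block. On leaving out libraries or numbers the line differences ran from -0.82 to 0.77 (Actg2), -0.51 to 0.80 (Tagln), -0.49 to 0.32 (Cnn1), -0.017 to 1.07 (Myl9) and -0.077 to 0.66 (Lmod1), while Acta2 (0.19 without MEF WT replicate 1 to 1.40 without MEF WT replicate 2), Cnn2 (0.053 without Nf2 KO replicate 2 to 0.53 without MEF WT replicate 2), Tpm2 (-0.86 without Nf2 KO replicate 2 to -0.0098 without MEF WT replicate 2) and Tpm1 (0.49 to 0.80) stayed on their side; with the block they ran from -0.063 to 0.16 (Actg2, -0.060 without replicate 2) and -0.054 to 0.21 (Tagln). Interactions ran from -0.39 to 0.36 (Cnn1), -0.25 to 0.020 (Cnn2), -0.41 to 0.067 (Myl9), -0.25 to 0.68 (Actg2), -0.16 to 0.30 (Tpm1) and -0.81 to 0.066 (Tagln). Genes past the interaction test went from 0 to between 0 and 16, and stayed at 0 with the replicate block; without a replicate 2 library it could not be fitted. The causes of these changes were not tested. Replicates 1 and 2 were shallower than replicate 3, which limits Cnn1, Mylk, Lmod1 and Actg2 most.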
